A study of Bos taurus with 5 samples.

Results

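The 6 genes described here, DDX4, GDF9, NLRP5, ZP2, ZP3 and ZP4, are known as genes of the oocyte, and they were looked for in RNA of bovine ovarian follicles. They were found by the RefSeq mRNA accession that each array probe carried, and 6 of the 1364 genes named in this way were taken, with 1 probe each. The arrays held total RNA of 3 largest follicles (F1) and 2 second-largest follicles (F2) of pregnant Japanese Black cows, 1 follicle per array, labelled with Cy3 and hybridized to custom one-color oligonucleotide arrays. No follicle was treated, all follicles came from paired ovaries of slaughtered animals of one breed, and no follicles were pooled. Both follicles were taken from some of the cows, and which arrays share a cow was not stated in the sources used here, so the p-values below measure the spread between these follicles. Stroma and theca externa had been removed from the walls. The methods call the RNA that of the follicular wall, meaning granulosa plus theca interna, whereas the labels speak of whole follicles, and neither says whether the oocyte with its cumulus cells was taken out.

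A growing follicle encloses an oocyte in a glycoprotein coat, the zona pellucida, which in cattle is built from ZP2, ZP3 and ZP4. The oocyte also secretes GDF9, a ligand of the transforming growth factor beta family that acts on the surrounding granulosa and cumulus cells through the receptors BMPR2 and TGFBR1. NLRP5 (also called MATER) is a maternal protein stored in the oocyte that early embryos need, and DDX4 (VASA) is an RNA helicase of the germ line. The question asked of the arrays was which of these transcripts were measurable in each follicle and whether F1 and F2 differed in them.

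Each value below rests on 1 spot per array that carried a 60-base probe. The last 30 bases of each probe are shown because they tell what the arrays could bind, with the letters AATAAA, the usual polyadenylation signal, in capitals.
DDX4: acaaatggtgttaaccagaaagattaaagc
GDF9: ttaatggaggAATAAAttcctgtgagtggc
NLRP5: ctctgtgaagcgctgtcctacctgaacaca
ZP2: actaattggattttcAATAAAatgtggaag
ZP3: ccctgtgtctgcttcccAATAAAagaagaa
ZP4: tggagatgagttgctcagcccaaatgtgtt

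The probes of GDF9, ZP2 and ZP3 held AATAAA, starting at base 41, 46 and 48 of the 60, and those of DDX4, NLRP5 and ZP4 did not. No member probe held these letters on the other strand. On the given strand 902 of the 10163 single-spot probes (8.88%) held AATAAA, and 405 (3.99%) did on the other strand. Probes with these letters were well above background on all 5 arrays in 62.3% of cases, against 46.4% of probes without them, which describes these probes only. ZP3 is among the former, and GDF9 and ZP2, which hold the same letters, are not. GC content was 35% in the DDX4, GDF9 and ZP2 probes, 45% in ZP4 and 55% in NLRP5 and ZP3, beside a median of 43.3% over all probes. No other probe on the array shared a run of 18 bases with any of the 6, on either strand. Whether other transcripts bind these probes was not tested. In the RefSeq gene table none of the 6 genes overlaps the protein-coding gene next to it. ZP3 lies between SSC4D and DTX2, and ZP2 between LDAF1 and ANKS4B. NLRP5 lies between NLRP8 and ZNF787, DDX4 between IL31RA and SLC38A9, GDF9 between SHROOM1 and UQCRQ, and ZP4 between RYR2 and CHRM3.

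Signals are given as background-subtracted intensity divided by the median of the 100 GAPDH spots of the same array, so that a value of 1 equals the GAPDH median. That median was between 868.7 and 1411.2 intensity units over the 5 arrays. A spot was counted as detected where the scanner software marked it well above background, which requires a signal above 0 that is significant at the 0.01 level and exceeds 2.6 times the SD of the background. Between 5465 and 5855 of the 10163 probes passed per array, and the weakest passing signal lay between 0.0124 and 0.0208 on the GAPDH scale. The 79 negative control spots set a second reference, and their 95th percentile lay between 0.00936 and 0.0150.

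Of the 6 oocyte genes, ZP3 alone was detected in every follicle, ZP2 was detected in 2 of the 5, and DDX4, GDF9, NLRP5 and ZP4 were detected in none. Over all 10163 probes, 47.8% were detected on all 5 arrays, 17.9% on 1 to 4 arrays and 34.3% on none. Over the 1364 probes with a RefSeq name the shares were 53.9%, 17.8% and 28.3%. A spot that does not pass gives at most a bound on its transcript, and only if the probe binds that transcript, which was not tested. DDX4, GDF9, NLRP5 and ZP4 were thus not detectable at this signal with these probes, and their levels are unknown. In bulk RNA such as this, fewer cells of a type and less RNA per cell cannot be told apart.

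**Figure D1:**
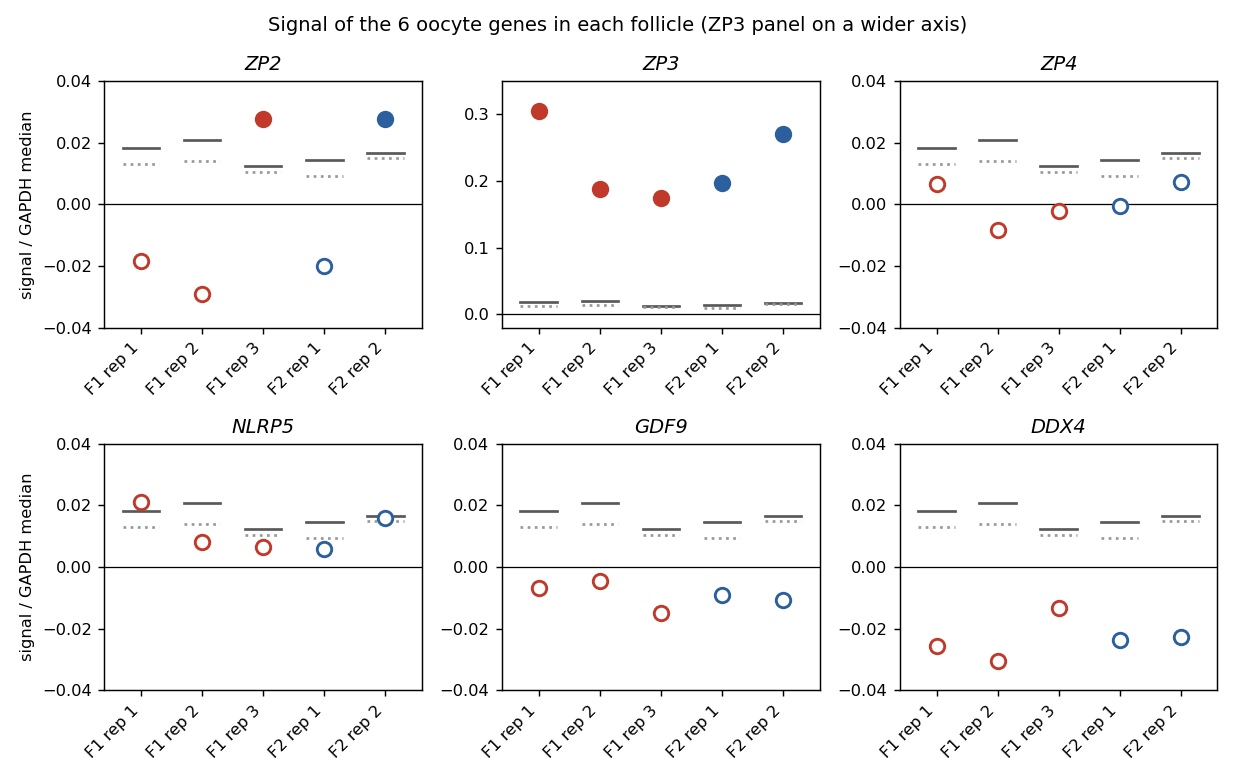
Signal of the 6 oocyte genes in each follicle, as processed signal over the array's GAPDH median, with F1 in red and F2 in blue. Filled circles are spots well above background and open circles are spots that are not. The solid bar is the weakest signal well above background on that array, and the dotted bar the 95th percentile of the negative controls. The ZP3 panel has a wider axis, and its 5 filled circles lie between 0.175 and 0.305, far above both bars.

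ZP3 encodes a structural glycoprotein of the zona pellucida. F1 replicates 1, 2 and 3 gave ZP3 signals of 0.305, 0.189 and 0.175, and F2 replicates 1 and 2 gave 0.197 and 0.270. F1 replicate 1 was the highest and F1 replicate 3 the lowest, so both F2 lay inside the range of the F1 and the groups overlapped. In intensity units the ZP3 spot read 300.2, 163.9 and 246.6 for the F1, then 247.9 and 270.2 for the F2, with an error from the scanner software between 10.8% and 13.1% of the signal. These signals were 9.07 to 16.8 times the weakest signal well above background on the same array. Detection of ZP3 in all 5 follicles was therefore not close to the limit of any array.

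The F1 had a mean ZP3 signal of 0.223 ± 0.0717 (SD, n = 3), and the F2 had one of 0.234 ± 0.0515 (SD, n = 2). The log2 difference F1 minus F2 was -0.098 (standard error 0.36, limma adjusted p = 0.875), and its 95% interval ran from -0.96 to 0.76. On the linear scale that is a ratio F1 over F2 of 0.935, with an interval from 0.515 to 1.70. The difference was smaller than the spread between follicles, and the data leave room for a difference within that interval in either direction. ZP3 was the 1 member of 6 that met the filter for this test, which asked for detection on every array of F1 or of F2, and 0 of the 6 were called. Over the 5528 probes tested, 634 (11.5%) had limma adjusted p under 0.05, 353 of them (6.39%) with the higher level in F1 and 281 (5.08%) with it in F2. Scaled to the 75th percentile the split was 408 and 454, so which group held more calls depended on the scale. At unadjusted p under 0.05 there were 1616 such probes, and ZP3, with unadjusted p = 0.792 in limma, was not one of them. The median log2 difference of all tested probes was 0.27 with the GAPDH scale and 0.048 when each array was scaled to its 75th percentile. With the latter scale the ZP3 difference was -0.32 (limma adjusted p = 0.440), so ZP3 lay below the median of the tested probes on both scales.

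**Figure D2:**
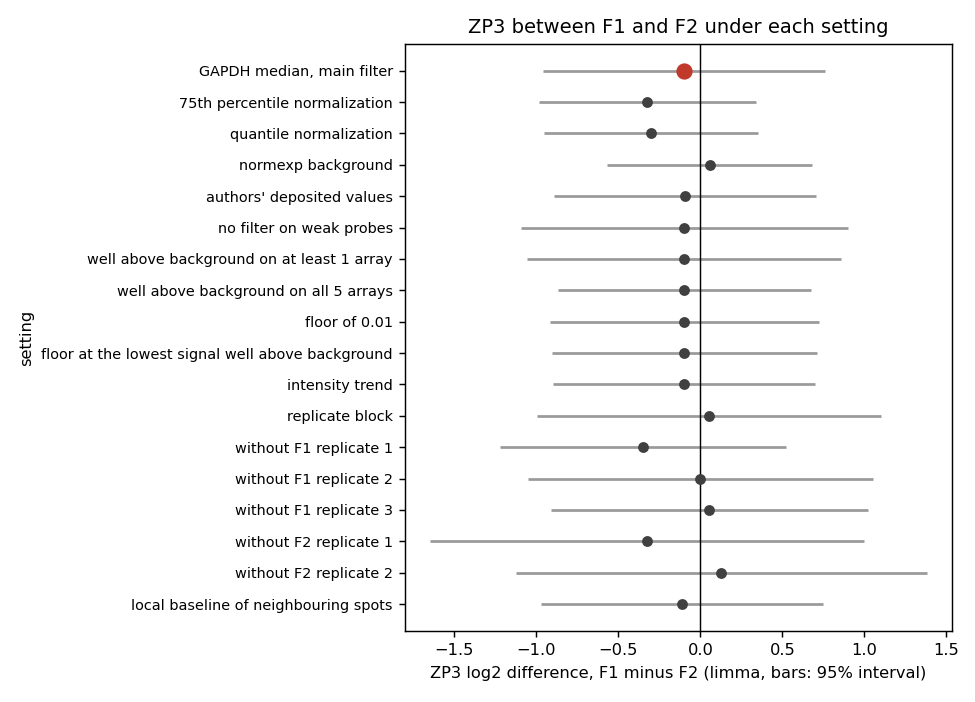
Log2 difference of ZP3 between F1 and F2 in limma under each setting, with bars for the 95% interval and the setting of the text in red. The estimates run from -0.35 to 0.13, and every interval spans 0.

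Ranked by signal, the follicles came in the order F1 replicate 1, F2 replicate 2, F2 replicate 1, F1 replicate 2 and F1 replicate 3 for ZP3. The steps between neighbours in that order were 0.18, 0.45, 0.066 and 0.11 on the log2 scale, against a combined error of the 2 ZP3 spots of 0.23, 0.23, 0.24 and 0.25. The scatter of single GAPDH spots on the same pairs of arrays was 0.26, 0.29, 0.24 and 0.17. The step between the 2 F2 was larger than each of these, and the other 3 steps were smaller than both. Both errors are technical, and no follicle was measured on a repeat array. From the highest to the lowest follicle ZP3 differed by 1.75-fold. The SD of its log2 signal over the 5 follicles was 0.35, and 67.8% of the 4861 probes detected on all arrays had a larger SD, so ZP3 was among the steadier probes. The median probe had an SD of 0.44 and a range of 2.13-fold. Scaled to the 75th percentile of each array in place of GAPDH, ZP3 read 0.813, 0.497 and 0.610 for the F1, then 0.761 and 0.807 for the F2. On that scale F1 replicate 2 was the lowest, and the F2 again lay within the range of the F1.

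The genes whose signals followed that of ZP3 most closely over the 5 follicles were FLT3LG, DLK1 and ELN, taken from 734 named probes detected on all arrays. FLT3LG, a cytokine of blood cell progenitors, read 1.37, 0.995 and 0.836 for the F1, then 0.997 and 1.28 for the F2. After each profile was centred on its mean, its root mean square difference from ZP3 was 0.0815 on the log2 scale. For DLK1, a transmembrane protein with repeats like those of epidermal growth factor, the root mean square difference was 0.0998, and for ELN, the elastin of elastic fibres, it was 0.115. All 3 were highest in F1 replicate 1 and F2 replicate 2, as ZP3 was, except that F2 replicate 2 exceeded F1 replicate 1 for ELN. Likeness over 5 points is a description of these arrays.

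ZP2 encodes another zona glycoprotein, which is cleaved after fertilization. F1 replicates 1, 2 and 3 gave ZP2 signals of -0.0185, -0.0289 and 0.0276, and F2 replicates 1 and 2 gave -0.0200 and 0.0278. The spot was well above background in F1 replicate 3 and F2 replicate 2 and below 0 in the other 3 follicles, so each group held both states and no fold change is given. The 2 detected spots read 39.0 and 27.8 intensity units, which is 3.63 and 1.86 times their scanner errors. On the array of F1 replicate 3 the background of this spot was marked as an outlier, and the deposited normalized table holds no value for it there, so that table gives ZP2 in F2 replicate 2 alone. No alternative filter that let ZP2 into the test led to a call.

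The ZP2 spot lay in row 27 and column 101 of a grid of 101 rows and 107 columns. Within 5 rows and columns of it were 56 other probes that were not detected on all 5 arrays. For the F1 arrays their median intensity was -2.87, -9.31 and 5.56, and for the F2 arrays it was -6.54 and 8.16, in the order of the replicates. The neighbours were thus above 0 on the same 2 arrays on which ZP2 was detected and below 0 on the other 3. Of these neighbours, 25.0% and 21.4% were well above background on the arrays of F1 replicate 3 and F2 replicate 2, against 8.93% to 12.5% on the others. Over the whole array 5709 and 5855 of the 10163 probes passed on those 2 arrays, against 5465 to 5729 on the others. The share of weak probes passing over the whole array was not computed, so how far the contrast is local to this spot is unknown. After the neighbours' median was subtracted, ZP2 still read 33.4 and 19.7 intensity units on those 2 arrays and -18.6 to -15.3 on the others. The part of the neighbourhood in the ZP2 signal was not tested.

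**Figure D3:**
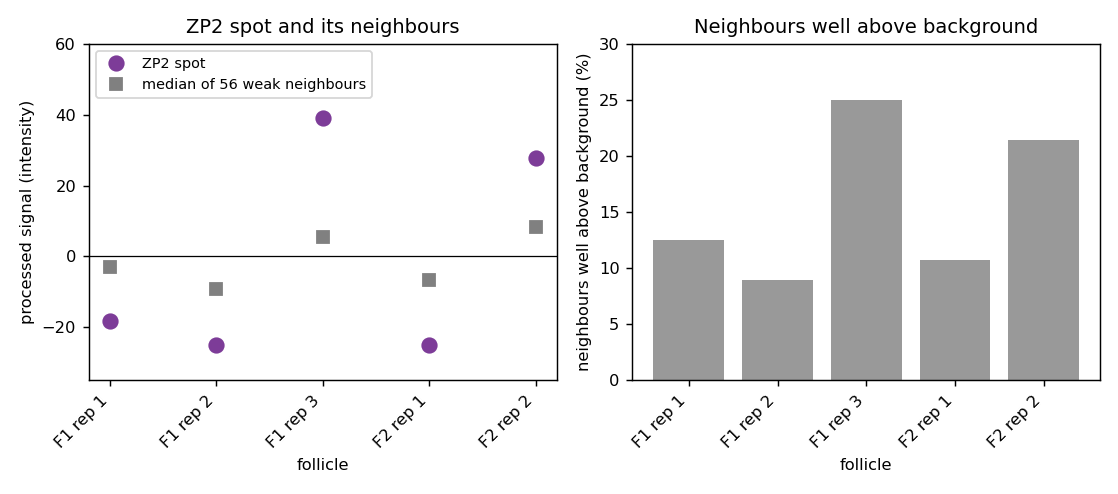
Left, processed signal in intensity units of the ZP2 spot (circles) and the median of its 56 weak neighbours (squares) in each follicle. Right, percentage of these neighbours that were well above background. ZP2 and its neighbours were both above 0 in F1 replicate 3 and F2 replicate 2, and the neighbours passed in 25.0% and 21.4% of cases there.

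ZP4, the remaining zona glycoprotein of cattle, read 0.00665, -0.00820 and -0.00227 for the F1, then -0.000562 and 0.00717 for the F2. All 5 lay under the weakest signal well above background on their arrays, and the groups overlapped around 0. In intensity units ZP4 ran from -7.13 to 7.16, which is inside the range of the negative controls on every array. The 3 zona genes thus differed in detection, with ZP3 in 5 follicles, ZP2 in 2 and ZP4 in 0.

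NLRP5 gave a signal above 0 in every follicle. Its values were 0.0211, 0.00806 and 0.00651 for the F1, then 0.00574 and 0.0158 for the F2, with the highest in F1 replicate 1 and overlap between the groups. None was marked well above background, although the 20.8 intensity units of F1 replicate 1 exceeded the weakest passing signal of that array, 17.8. Under the looser mark of a positive and significant signal, NLRP5 passed on all 5 arrays. Over all probes 55.3% did so on all 5 arrays and 16.5% on none. None of the 79 negative controls passed on all 5, although 40 of them (50.6%) passed on at least 1 array, against 2 (2.53%) that were well above background on at least 1. ZP4 was positive and significant in F1 replicate 1 and F2 replicate 2. Against the 95th percentile of the negative controls, NLRP5 passed in F1 replicate 1 and F2 replicate 2. By that measure 50.9% of all probes passed on all 5 arrays, 22.2% on 1 to 4 and 26.9% on none. The deposited normalized table gives no value for NLRP5, and over all probes it gives a value on all 5 arrays for 43.5%, on 1 to 4 for 21.6% and on none for 34.9%. The status of NLRP5 therefore depended on the rule for detection, and its signals were 0.509 to 1.53 times their scanner errors. After the median of weak spots within 5 rows and columns was subtracted, NLRP5 read 14.2, -0.0013 and 4.67 intensity units for the F1. For the F2 it read -2.87 and 16.3. In F1 replicate 2 and F2 replicate 1 the spot was thus no brighter than that median.

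GDF9 was below 0 in every follicle (in F1 replicate 1 its background was marked as an outlier), with -0.00685, -0.00468 and -0.0150 for the F1, then -0.00907 and -0.0106 for the F2. DDX4 was also below 0 throughout, with -0.0256, -0.0305 and -0.0132 for the F1, then -0.0237 and -0.0228 for the F2. Neither passed any of the 4 rules for detection on any array, and F1 and F2 overlapped in both. In intensity units GDF9 ran from -21.1 to -4.06 and DDX4 from -29.7 to -18.7. On the array of F2 replicate 1, DDX4 (-29.7) and ZP2 (-25.1) lay below the lowest negative control (-20.5). What lowered these spots was not tested. The difference from the median of weak spots within 5 rows and columns was -18.9 to -6.72 for GDF9 and -29.5 to -18.4 for DDX4, so both spots were dimmer than that median on every array.

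**Figure D4:**
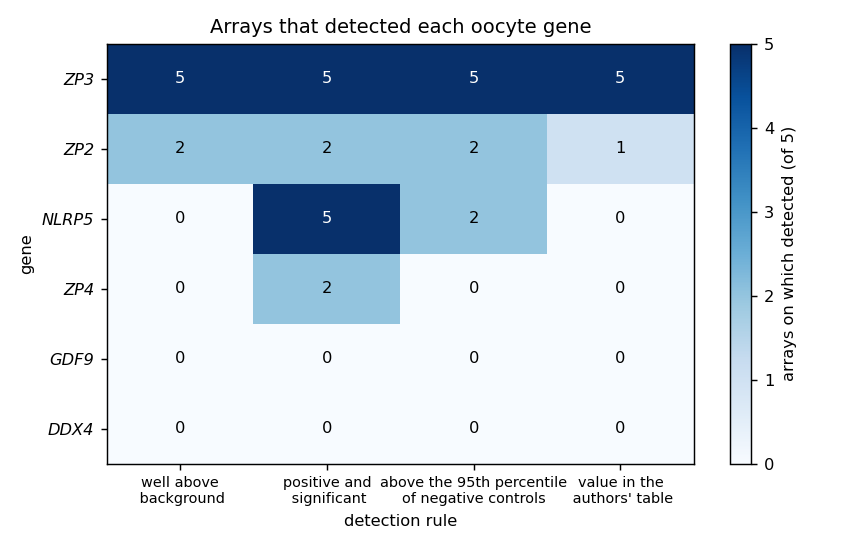
Number of arrays, of 5, on which each oocyte gene was detected under each of 4 rules. ZP3 reads 5 under all rules, GDF9 and DDX4 read 0 under all, and NLRP5 ranges from 0 to 5.

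Few other genes of the oocyte could be named on the arrays. Of the 10163 probes 1364 had a RefSeq name, and whether the unnamed probes hold more oocyte genes was not tested. Lists of oocyte growth factors, transcription factors, egg surface proteins, maternal effect genes, germ cell RNA regulators and meiosis genes named 66 further genes, of which 3 had a probe with a RefSeq name. None of the 3 was detected on all 5 arrays and none could be tested between F1 and F2. KITLG, a product of granulosa cells whose receptor KIT is on the oocyte, was detected in F2 replicate 2 alone, with a signal of 0.0316. CD9, a membrane protein of the egg and of many other cells, was detected in F1 replicate 3 alone. Its signal of 0.0154 there was close to the weakest passing signal of that array, 0.0124. CD9 read below 0 in F1 replicates 1 and 2 and in F2 replicate 1. POU5F1, a pluripotency factor kept in oocytes, was detected on no array, though it was positive and significant on 3. ZP3 was thus the 1 gene detected in every follicle among these 3 and the 6 members.

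On the receiving side of GDF9, 2 of 9 receptors and mediators had a probe with a RefSeq name. TGFBR1, its type I receptor, was detected on no array. FURIN, a protease that cleaves precursors of this ligand family, was detected in every follicle, with 0.0571, 0.0315 and 0.0320 for the F1, then 0.0189 and 0.0447 for the F2. FURIN overlapped between the groups (log2 difference 0.41, standard error 0.48, limma adjusted p = 0.601). Among 11 genes of cumulus expansion, a program that GDF9 is known to promote in cumulus cells, 7 had a named probe and 4 could be tested. VCAN and TNFAIP6, both of the expanding matrix, had the higher level in F1, and PTGES, a prostaglandin E synthase, had it in F2, so 2 of 4 differed in one direction and 1 in the other, beside 6.39% and 5.08% of all tested probes. VCAN read 4.08, 2.41 and 2.49 for the F1, then 0.236 and 0.409 for the F2, and the F1 exceeded the F2 by 9.35-fold in limma (adjusted p = 0.00493). TNFAIP6 read 1.04, 0.151 and 1.14 for the F1, then -0.00469 and 0.0319 for the F2 (limma adjusted p = 0.0435). TNFAIP6 was not detected in F2 replicate 1, so it met the filter for testing through F1 alone. Its value in F2 replicate 1 was raised to a floor of 0.001 of the GAPDH median, and the p-value rests partly on that floor. PTGES read 0.0695, 0.121 and 0.0768 for the F1, then 0.913 and 0.701 for the F2, and the F2 exceeded the F1 by 9.25-fold in limma (adjusted p = 0.00338). Without F2 replicate 1 none of the 3 was called, and TNFAIP6 was also lost without F2 replicate 2, F1 replicate 1 or F1 replicate 3 and with the replicate number as a block (limma adjusted p = 0.101). HAS2, the hyaluronan synthase of cumulus expansion, was detected on no array.

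Markers of the cell types of the wall were measured on the same arrays, and their calls are read beside the 6.39% of all tested probes that were higher in F1 and the 5.08% that were higher in F2. All 6 granulosa markers with a probe named here (FSHR, CYP19A1, AMH, INHA, INHBA and FST) were called higher in F1. Their summed signal was 172.7 to 237.1 for the F1, then 6.84 and 6.86 for the F2. HSD17B1, also on the list, had no named probe here, but the paper lists it as higher in its F1 cluster. Of 6 genes listed as theca markers, CYP17A1, INSL3 and LHCGR were called higher in F1, and STAR, CYP11A1 and HSD3B1 were not called. The paper's background describes a rise of LH receptor in granulosa cells too, and which cells gave the LHCGR signal was not tested. STAR, which brings cholesterol into mitochondria, read 5.56, 3.14 and 5.33 for the F1, then 16.1 and 9.91 for the F2 (limma adjusted p = 0.0593), so its levels ran against those of the called theca markers without overlap. The summed theca signal was 69.3 to 105.2 for the F1, then 30.1 and 33.3 for the F2. INHA and INHBA were saturated on 3 arrays and FST and INSL3 on 2, so both sums are lower bounds where such spots enter. Of 4 tested endothelial markers SELP was called higher in F2 and 3 were not called. Both tested leukocyte markers, CD14 and CD3E, were called higher in F2. The summed signal of the 3 leukocyte probes was 0.148 and 0.230 in the F2, against 0.0143 to 0.0426 in the F1. FSHR and LHCGR were detected in no F2 and CD3E in no F1, so each met the filter only through its brighter group. CYP19A1 also did, as F2 replicate 1 did not pass. Values of LHCGR and CD3E below 0 were raised to a floor of 0.001 of the GAPDH median. With undetected spots set no lower than the weakest passing signal, ratios were at least 40.3-fold (FSHR), 2.18-fold (LHCGR) and 1.71-fold (CD3E). Without F2 replicate 1 the calls of AMH, CYP17A1, INSL3, SELP, CD14 and CD3E were lost. Without F2 replicate 2 those of INSL3, SELP, CD14 and CD3E were lost, and without F1 replicate 2 that of CD14 (limma adjusted p = 0.0508). The ZP3 signal in the same follicles was 0.175 to 0.305, and its difference was not tested against that of any marker. Which cells the ZP3 RNA came from was not tested.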

How the data were processed

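The 5 scanner files held 10163 single-spot probes and 100 GAPDH spots per array. Per the file headers, the authors extracted each spot with Feature Extraction 9.5.3.1, and the deposited processed signal is an intensity after background subtraction. The authors' deposited table is a ratio, and 27483 of 27483 of its values lay within 0.0011 of the processed signal over the GAPDH median of the array. All deposited columns of per-sample values were matched to a sample. How precise any value is was limited by having 5 arrays.

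Signals were divided by the GAPDH median, as the methods state. For testing, values under 0.001 of it were raised to that floor and 1 probe value with a flag for an outlying or uneven spot was left out. Values with a flag for an outlying background, among them ZP2 in F1 replicate 3 and GDF9 in F1 replicate 1, were kept. Probes detected (well above background) throughout F1 or throughout F2, 5528 in all, were tested on the log2 scale in R 4.3.3 by the lmFit and eBayes functions of limma 3.58.1. P-values were adjusted over all of them by the Benjamini-Hochberg method, the threshold was 0.05 and no block was used. The code was tested on simulated data. Scan day and slide gave no usable block, since all 5 arrays were scanned on the same day and each lay on its own slide. Tables and plots were made in Python 3.11.15 with numpy 2.4.6, pandas 2.3.3 and matplotlib 3.10.9.

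Probes carry accessions, and 1364 of 1415 with a RefSeq accession were named through a RefSeq gene table, used for names and neighbouring genes only. The genome build behind the probes was not given in the sources used here. The genes, lists and rules were chosen with earlier results of these data known. Named were all 6 genes with every probe, from each list the genes with limma adjusted p under 0.05 or, where there were none, those detected on all 5 arrays, and the 3 genes most like ZP3; other list genes named were chosen after their values were seen. A search of translated probes in protein sequences was not run. Alternatives were other normalizations, background correction, filters, floors, detection rules, an intensity trend, a replicate block, the authors' values and leaving out each follicle. Subtracting the median of neighbouring spots was added after seeing the data. QPCR, in situ hybridization and hormone data are not analysed here.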

Additional observations from a re-analysis of the deposited data

How the results depend on the processing

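ZP3 was detected on all arrays under every detection rule, and DDX4 and GDF9 on none. With the positive and significant mark, 2 members in place of 1 were detected on all arrays and 2 in place of 4 on none. With the main rule and each follicle left out, these counts were 1 to 1 and 4 to 4. That outcome was fixed in advance by detection of ZP3 on 5 arrays and ZP2 on 2, so it is no check. Over 17 alternatives 0 members were called between F1 and F2. ZP2 was tested only with no filter, with detection on at least 1 array and without F2 replicate 1. DDX4, GDF9, NLRP5 and ZP4 were tested only with no filter, where DDX4 and GDF9 lay at the floor throughout and could not be called. For members other than ZP3 the absence of calls was thus largely fixed in advance. The limma adjusted p of ZP3 was 0.440 or higher. Its log2 difference F1 minus F2 kept its sign in 13 and turned in 4: 0.056 with normexp, 0.055 with the replicate block, 0.055 without F1 replicate 3 and 0.13 without F2 replicate 2. Leaving out each follicle gave -0.35 to 0.13. The cause of these turns was not tested, and each is smaller than the standard error. With neighbouring spots as baseline it was -0.11.

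Whether same-numbered follicles came from the same cow was not stated. Correlations of their deviations from the group means were 0.039 for number 1 and 0.13 for number 2. The deviations of the 2 F2 mirror each other, so these are not independent checks and cannot show which follicles share a cow. The replicate block, in which F1 replicate 3 drops out of the contrast, called 578 probes in place of 634. Without a filter 214 were called and with detection on at least 1 array 344. Leaving out each follicle gave 160 (without F2 replicate 1) to 550, with 200 without F2 replicate 2 and 344 without F1 replicate 1, and a lone F2 is then assumed to vary like the F1. Calls higher in the F2 outnumbered those higher in the F1 with the 75th percentile (454 against 408), quantile normalization (453 against 445), no filter (113 against 101) and without F1 replicate 1 (183 against 161), F1 replicate 2 (312 against 238) or F2 replicate 1 (106 against 54). Leaving out a follicle gave 54 to 279 calls higher in the F1 and 77 to 312 higher in the F2. Weak signal limits what can be said of NLRP5, ZP2 and ZP4.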
